A study of Mus musculus with 6 samples.

Results

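Collagen chain genes were followed through 6 primary cultures of mouse dorsal root ganglia, the sensory ganglia beside the spinal cord. They were taken as the protein-coding genes whose symbol has the form of a collagen alpha chain (Col, a type number, a, a chain number), which gave 44 of the 45703 genes in the table. By type, 11 belong to the fibrillar collagens, 6 to type IV collagen of basement membranes and 27 to other collagens. All 6 cultures formed 1 group: wild type C57BL/6 mice, 4 to 6 weeks old, kept for 7 days in vitro on poly-L-lysine in DMEM/F12 medium holding 10% fetal calf serum plus the growth factors EGF and FGF (10 ng/ml). The design calls them biological replicates, and each library pooled 2 dishes, but no label ties a culture to an animal, so p-values measure only the spread between these samples, which may be technical. There was no treated, mutant or uncultured group, so the comparisons are between cultures and between chains within a library. The collagenase blends (Liberase) used to free the cells cut collagen protein, and transcripts alone were measured here.

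Collagens are secreted trimers of alpha chains, built from glycine-rich repeats that wind into a helix. Fibrillar collagens assemble into the cables of connective tissue, type IV collagen forms the sheet-like network of basement membranes, and the remaining types decorate fibrils, anchor membranes or form beaded filaments. In peripheral nerve, Schwann cells lie within a basement membrane that contains type IV collagen, and fibroblasts of the endoneurium and epineurium deposit fibrils of types I and III.

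The libraries held between 20070639 and 22968642 counts, and values are given as CPM, the counts of a gene scaled to the same total in every library. CPM and shares of counts say how many counts genes took, and the levels of different collagen genes are ranked by CPM per kilobase of their merged exons. The labelled tissue was represented by its markers: all 8 neuron markers and all 8 peripheral glia markers reached 1 CPM in all 6 libraries. Summed CPM over a marker list ran from 4468 to 6531 for peripheral glia, 986 to 2127 for neurons, 121.7 to 1209 for fibroblasts, 303.8 to 1994 for mural cells, 634.6 to 891.8 for perineurium, 10.5 to 136 for endothelium and 15.6 to 163 for macrophages. Cultures 1 and 5 stood at opposite ends for several of these lists: culture 1 had the lowest sum for fibroblasts, mural cells, endothelium and macrophages, and culture 5 had the highest sum for these 4 lists and the lowest for glia, neurons and perineurium. The perineurial markers did not share 1 direction. Itgb4 was lowest in culture 5 (299.2 CPM), but Slc2a1 (69.6 CPM) and Cldn1 (19.4 CPM) were highest there, and Moxd1 and Tjp1 were at neither end. In bulk RNA, fewer cells of a type and less RNA per cell cannot be told apart.

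Collagen genes took 2.45% ± 0.535 of all counts (SD, n = 6). The share was 1.73%, 2.47%, 2.17%, 2.56%, 3.36% and 2.42% in cultures 1 to 6, so culture 1 was lowest and culture 5 highest, 1.94 times apart. Fibrillar chains made up 50.9% ± 4.39 of the collagen counts, type IV chains 18.1% ± 1.76 and the others 31.0% ± 3.64 (SD, n = 6). The 10 chains with the largest shares, Col5a2, Col4a1, Col28a1, Col1a2, Col3a1, Col1a1, Col18a1, Col4a2, Col5a1 and Col16a1, held 86.4% of the collagen counts on average. Fibrillar exceeded type IV counts in all 6 libraries, by 2.22 times in culture 6 and up to 3.42 times in culture 5, with a mean log2 ratio of 1.49 ± 0.233 (SD, n = 6).

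**Figure D1:**
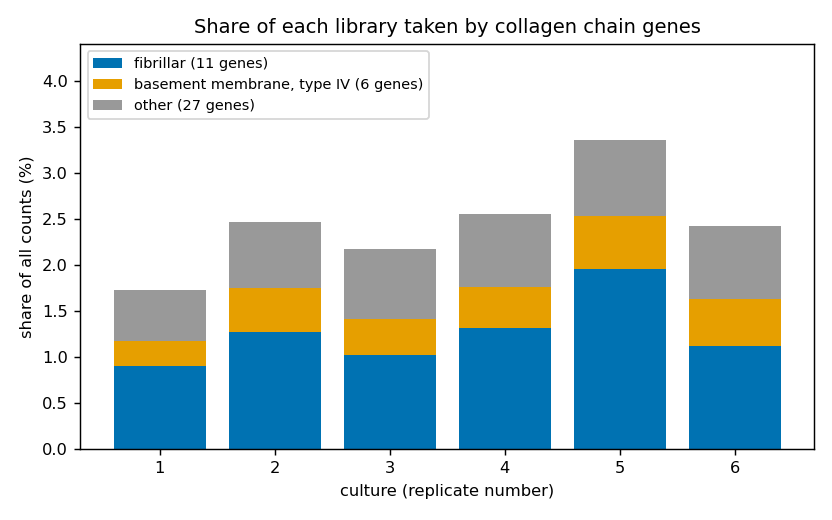
Percent of all counts of a library (vertical axis) taken by fibrillar, type IV and other collagen genes in cultures 1 to 6; each bar is 1 library. The total runs from 1.73% in culture 1 to 3.36% in culture 5, and the fibrillar part is the largest in every library.

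Of the 44 genes, 28 reached 1 CPM in all 6 libraries (63.6%), near the 55.8% of all protein-coding genes that did so. By class these were 10 of 11 fibrillar genes, 4 of 6 type IV genes and 14 of 27 others. The 30 genes kept by the filter on low counts took more counts than most: their median of mean CPM, not scaled by length, was 296.5, against 23.5 for all 14998 genes kept. Of the 14 genes not kept, Col9a1, Col4a3, Col6a6 and Col13a1 had at most 3 counts in every library, where 3 counts correspond to 0.131 to 0.149 CPM. The other 10, Col19a1, Col25a1, Col9a2, Col8a2, Col26a1, Col6a5, Col6a4, Col22a1, Col17a1 and Col4a6, had at most 48 counts in any library, which was 2.29 CPM for Col8a2 in culture 5. None of the 4 transmembrane collagens (Col13a1, Col17a1, Col23a1 and Col25a1) reached 1 CPM in all libraries, and Col23a1 came closest, at 0.914 to 3.68 CPM.

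**Figure D2:**
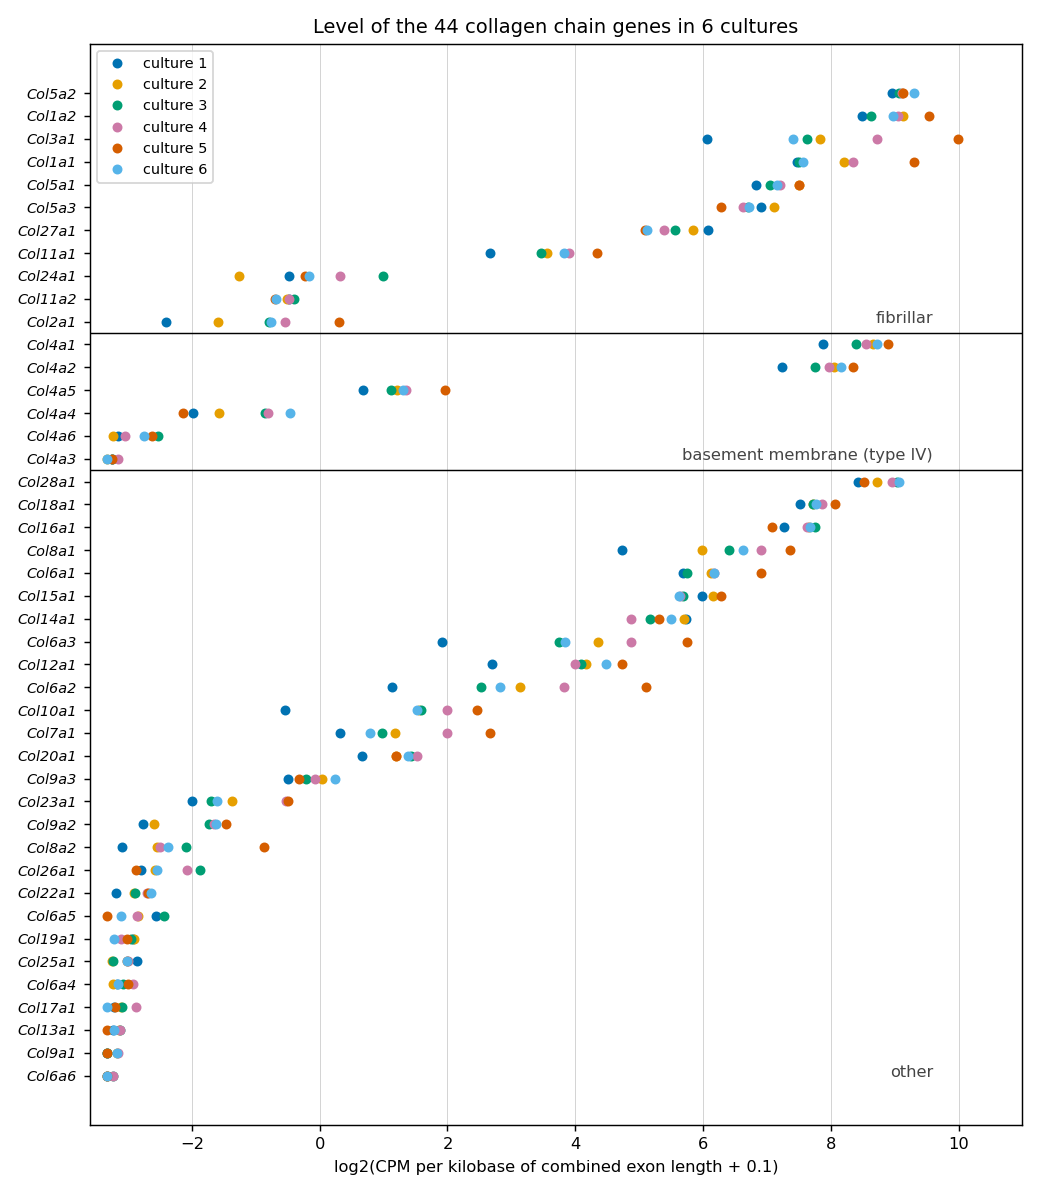
Level of each collagen gene in the 6 cultures as log2(CPM per kilobase of exon + 0.1), grouped by class and ordered by mean level; each point is 1 library. Col5a2, Col1a2 and Col28a1 have the 3 highest means, and the points of Col3a1, Col6a2 and Col6a3 spread far more widely than those of Col5a2 or Col11a2.

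Among fibrillar chains, the highest by length was Col5a2 (chromosome 1, 45374331 to 45503282, GRCm38.p6), a chain of type V collagen, which is incorporated into type I fibrils and limits their diameter. It stood at 556 ± 44.3 CPM per kilobase (SD, n = 6). Its CPM was 3288, 3663, 3550, 3656, 3725 and 4186 in cultures 1 to 6. These values lie close together, with culture 6 highest and a coefficient of variation of 7.97%. Its partner Col5a1 (chromosome 2, 27886381 to 28039510), which type V trimers usually contain, had 963, 1545, 1128, 1249, 1546 and 1209 CPM. The third type V chain, Col5a3 (chromosome 9, 20770050 to 20815117), known from Schwann cells among other sites, had 792.6, 910.9, 688.8, 649, 512.7 and 694.9 CPM. Col5a1 was lowest in culture 1 and Col5a3 lowest in culture 5.

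Type I collagen, the main fibril protein of connective tissue, is made of the products of Col1a1 and Col1a2. Col1a2 (chromosome 6, 4505618 to 4541543) had 1880, 2921, 2077, 2777, 3899 and 2612 CPM in cultures 1 to 6. Col1a1 (chromosome 11, 94936224 to 94953042) had 1046, 1753, 1076, 1931, 3755 and 1127 CPM. Both were highest in culture 5 and lowest in culture 1, but the range was 3.59-fold for Col1a1 and 2.07-fold for Col1a2. Without culture 5 these ranges were 1.85-fold and 1.55-fold. Col3a1 (chromosome 1, 45311538 to 45349706), whose type III homotrimers accompany type I in pliable tissues, had 370.5, 1264, 1104, 2364, 5678 and 946.3 CPM. Its highest library was 15.3 times its lowest, or 6.00 times without culture 1 and 6.38 times without culture 5. In culture 5 it had the highest level of the 44 genes, at 1020 CPM per kilobase, with Col1a2 next at 747.

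Among the remaining fibrillar genes, Col27a1 (chromosome 4, 63214009 to 63334991), a fibrillar chain prominent in cartilage, had 581.8, 493.7, 405.8, 361.5, 292.5 and 299.5 CPM, with culture 1 highest and culture 5 lowest. Col11a1, a chain of the cartilage-type fibril core that also occurs outside cartilage, had 49.8, 92.4, 86.7, 118, 159 and 112 CPM. Its type XI partner Col11a2 had 4.48, 4.37, 4.80, 4.53, 3.77 and 3.83 CPM, values that lie close together. Col24a1, a fibrillar chain found in developing bone, had 4.44, 2.28, 13.5, 8.17, 5.40 and 5.64 CPM, with culture 3 highest. Col2a1, the main cartilage collagen, ran from 0.523 CPM in culture 1 to 6.69 CPM in culture 5.

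The upstream stretches of Col1a2 and Col3a1, and of Col6a1 and Col6a2, are printed because the members of each couple are highest in the same culture but differ in how far they range. They are the 250 bases before the RefSeq start on GRCm38.p6, 5′ to 3′ on the gene's strand, with capitals marking 3 motifs on either strand, which do not overlap one another here: the TATA box letters TATAAA, the box read as CCAAT and the GC box letters GGGCGG. The windows lie at chr6:4505368-4505617 (+), chr1:45311288-45311537 (+), chr10:76726045-76726294 (-) and chr10:76623631-76623880 (-).
Col1a2: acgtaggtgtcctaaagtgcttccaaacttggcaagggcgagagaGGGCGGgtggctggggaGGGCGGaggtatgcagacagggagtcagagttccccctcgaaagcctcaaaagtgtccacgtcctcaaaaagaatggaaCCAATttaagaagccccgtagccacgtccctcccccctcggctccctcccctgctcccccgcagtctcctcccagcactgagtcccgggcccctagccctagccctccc
Col3a1: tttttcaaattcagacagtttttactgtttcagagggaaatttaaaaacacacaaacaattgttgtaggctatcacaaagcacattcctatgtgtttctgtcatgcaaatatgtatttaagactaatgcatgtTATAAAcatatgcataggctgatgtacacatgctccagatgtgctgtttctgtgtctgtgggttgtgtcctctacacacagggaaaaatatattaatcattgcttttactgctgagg
Col6a1: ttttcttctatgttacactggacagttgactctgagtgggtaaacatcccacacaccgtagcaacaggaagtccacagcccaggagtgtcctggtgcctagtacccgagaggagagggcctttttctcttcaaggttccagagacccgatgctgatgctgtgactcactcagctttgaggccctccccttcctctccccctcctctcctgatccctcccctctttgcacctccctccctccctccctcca
Col6a2: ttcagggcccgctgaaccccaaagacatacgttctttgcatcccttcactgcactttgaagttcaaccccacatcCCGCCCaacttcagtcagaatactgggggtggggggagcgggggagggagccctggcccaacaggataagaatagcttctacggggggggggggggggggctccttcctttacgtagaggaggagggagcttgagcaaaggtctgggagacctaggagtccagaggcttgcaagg
The Col1a2 window held 1 CCAAT, starting 109 bases before the start, and 2 copies of GGGCGG, the Col3a1 window 1 TATAAA starting 117 bases before it, and the Col6a2 window 1 GGGCGG. The Col6a1 window held none of these letters. RefSeq windows were matched for 35 of the 44 genes. GGGCGG was present in 21 of these 35 (60%), against 33% of 27025 promoters, CCAAT in 12 (34.3% against 34.5%) and TATAAA in 5 (14.3% against 13%). These are matches of letters on both strands only, and the 27025 promoters were not limited to protein-coding genes, as the collagen genes were.

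Type IV collagen was carried almost entirely by its ubiquitous chains. Col4a1 (chromosome 8, 11198423 to 11312889) had 1762, 3053, 2524, 2822, 3594 and 3177 CPM in cultures 1 to 6. Col4a2 (chromosome 8, 11312805 to 11449287) had 967.6, 1706, 1392, 1620, 2099 and 1840 CPM. Both genes put the 6 cultures in the same order, culture 1 lowest and culture 5 highest, and their ranges were 2.04-fold and 2.17-fold. Col4a5, a chain of the mature kidney and smooth muscle networks, had 9.80 to 24.7 CPM. Col4a4, a chain of the filtering membranes of kidney and cochlea, had 1.79, 2.73, 5.26, 5.43, 1.48 and 7.22 CPM, with cultures 1 and 5 lowest.

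The 6 type IV genes are arranged as 3 couples that start back to back, and the partners were unequal to very different degrees. Col4a1 and Col4a2 overlap by 85 bases at their starts. The outer edge of Col4a1 lies at 11312889, while the start on which its RefSeq promoter window is set lies further inside the gene, at 11312826. From that start to the start of Col4a2 there are 22 bases, chr8:11312805-11312826 on the plus strand, shown because they lie between the starts of both genes. Motifs are not marked by capitals in this stretch, which holds the letters GGGCGG.
Col4a1 and Col4a2: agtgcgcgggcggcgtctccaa
Col4a4 and Col4a3 (chromosome 1) overlap by 114 bases, yet Col4a4 was counted in every library and Col4a3 had at most 2 counts in any. Col4a6 and Col4a5 (chromosome X) lie 1.27 kb apart, and Col4a6 stayed at or below 0.508 CPM. Adjacent collagen genes elsewhere also differed in their range. Col3a1 and Col5a2 lie 24.6 kb apart on chromosome 1, tail to tail, and ranged 15.3-fold and 1.27-fold. Col6a2 and Col6a1 lie 85.2 kb apart on chromosome 10 on the same strand, and ranged 16.4-fold and 2.35-fold (6.72-fold and 1.41-fold without culture 5).

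Type VI collagen, a beaded microfilament found around cells in many tissues, is classically assembled from the products of Col6a1, Col6a2 and Col6a3. Col6a1 (chromosome 10, 76708792 to 76726044) had 203.5, 278.3, 213, 285.6, 478.4 and 286.4 CPM. Col6a2 (chromosome 10, 76595756 to 76623630) had 12.6, 52.4, 34.2, 84.5, 206.8 and 41.8 CPM. Col6a3 (chromosome 1, 90766860 to 90844001) had 39.8, 221.8, 144.3, 316.7, 582.9 and 155.2 CPM. All these chains were lowest in culture 1 and highest in culture 5, and Col6a2 and Col6a3 put the cultures in the same order. The chains that can replace the product of Col6a3 were nearly absent: Col6a4, Col6a5 and Col6a6, neighbours on chromosome 9, stayed at or below 0.785 CPM.

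Col28a1 (chromosome 6, 7997100 to 8193709) stood out among the other collagens, at 448.6 ± 83.3 CPM per kilobase (SD, n = 6), the third highest mean of the 44 genes. Type XXVIII collagen is known mainly from peripheral nerve, where it surrounds glial cells. Its CPM was 2033, 2491, 3107, 2949, 2175 and 3187 in cultures 1 to 6, with cultures 1 and 5 lowest. It made up 6.48% of the collagen counts in culture 5 and 10.1% to 14.3% in the other libraries.

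The multiplexins bind basement membranes to the matrix around them. Col18a1 (chromosome 10, 77052178 to 77166530), the source of the endostatin fragment, had 1334, 1533, 1537, 1683, 1944 and 1580 CPM. Col15a1 (chromosome 4, 47207655 to 47313167) had 361, 407.1, 294.7, 286.1, 447.1 and 280.7 CPM. Both were highest in culture 5, by little: the ranges were 1.46-fold and 1.59-fold. Col7a1, which forms the anchoring fibrils beneath epithelia, had 10.7, 20.04, 17.2, 35.9, 57.6 and 15.1 CPM.

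Fibril-associated collagens carry interrupted helices and lie on the surface of fibrils. Col16a1 (chromosome 4, 130047817 to 130099277) had 962.6, 1263, 1345, 1236, 849.5 and 1273 CPM and was lowest in culture 5. Col14a1 had 379.3, 369.9, 254.8, 206.8, 280.4 and 321.8 CPM, with culture 4 lowest. Col12a1 had 89.9, 252.3, 238.4, 224.1, 374.6 and 314.4 CPM, with culture 1 well below the rest. Col20a1 ran from 11.6 to 21.8 CPM and Col9a3 from 1.87 to 3.35 CPM.

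The short-chain network collagens were represented mainly by Col8a1 (chromosome 16, 57624256 to 57754737), known from endothelium and smooth muscle. It had 136, 322.2, 432.5, 609.9, 841.3 and 506.6 CPM, a 6.19-fold range. Its relative Col10a1, best known from hypertrophic cartilage, had 1.83, 8.88, 9.05, 12.2, 16.9 and 8.70 CPM. Col10a1 overlaps the gene Nt5dc1 on the opposite strand, which was counted at a similar level (202 counts on average for Col10a1 and 237 for Nt5dc1). With the strand setting of the counting not given, the reads of such couples, the type IV genes included, may not have been told apart.

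The next question was whether collagen genes differed between cultures by more than other genes did. Tested by chi-square against counting noise, the 6 counts differed for 29 of the 30 genes kept, at a Benjamini-Hochberg adjusted p under 0.05 (96.7%), against 76.3% of all 14998 genes. The exception was Col11a2 (adjusted p = 0.593), and Col9a3 passed narrowly (adjusted p = 0.0349). This test calls abundant genes more readily, and collagen genes were abundant. Their median coefficient of variation over the 6 cultures was 29.9%, against 12.1% for all genes tested. It was 28.1% for fibrillar, 28.0% for type IV and 34.1% for other collagens.

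Spread was then measured against genes of similar abundance. The quasi-dispersion of edgeR, divided by its trend, had a median of 7.51 over the 30 genes and 1.12 over all genes. With that tool, 0 of 30 genes passed an adjusted p under 0.05, as did 0% of all genes. The test had little power to call any: its prior had 2.49 degrees of freedom. Even the largest ratio of the 30, 150.6 for Col6a2, gave an unadjusted quasi-dispersion p of 0.00238. After adjustment over 14998 genes a call was hardly possible, so no conclusion is drawn from the 0. At an unadjusted p under 0.05, 11 of 30 passed (36.7%), against 5.39% of all genes: Col6a2, Col6a3, Col7a1, Col3a1, Col8a1, Col12a1, Col11a1, Col10a1, Col2a1, Col24a1 and, narrowly, Col1a1. By class these were 5 of 11 fibrillar, 0 of 4 type IV and 6 of 15 other genes. DESeq2 marked 9 of the 30 as dispersion outliers (30%), against 3.41% of all genes. Without culture 1 the count at an unadjusted p was 8 (5.76% of all genes) and without culture 5 it was 12 (5.51% of all genes).

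By size alone, 9 of the 28 genes detected in all libraries had a highest library at least 4 times the lowest (32.1%), against 3.24% of all genes so detected. The range was 16.4-fold for Col6a2, 15.3-fold for Col3a1, 14.6-fold for Col6a3, 9.22-fold for Col10a1, 6.19-fold for Col8a1, 5.94-fold for Col24a1, 5.40-fold for Col7a1, 4.88-fold for Col4a4 and 4.17-fold for Col12a1. Among the same 28 genes, leaving out culture 1 lowered the number to 5 (Col3a1, Col4a4, Col6a3, Col24a1 and Col6a2), against 1.98% of the same set of all genes. With detection judged in the other 5 libraries, 30 genes were detected and the number was 6 (2.71% of all genes), since Col2a1 then entered with a 4.89-fold range. Leaving out culture 5 gave 7, against 2.03% of all genes. Without culture 1 the range was 6.05-fold for Col6a2, 6.00-fold for Col3a1, 4.04-fold for Col6a3, 2.61-fold for Col8a1, 1.94-fold for Col10a1 and 1.67-fold for Col12a1. Without culture 5 it was 6.72-fold for Col6a2, 6.38-fold for Col3a1, 7.96-fold for Col6a3 and 3.36-fold for Col7a1. Single other libraries mattered for Col24a1, which ranged 3.05-fold without culture 2 and 3.59-fold without culture 3, and for Col4a4, which ranged 3.67-fold without culture 6. At the other end, 9 of the 19 genes with a mean of at least 100 CPM ranged less than 2-fold: Col5a2, Col5a1, Col15a1, Col27a1, Col16a1, Col28a1, Col5a3, Col18a1 and Col14a1. The same share over all genes of that level was not computed, so this count does not set collagen genes apart from others.

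Most collagen genes placed the same cultures at the ends. Of the 30 genes tested, 19 were highest in culture 5 (63.3%), against 29.2% of all genes, and 22 were lowest in culture 1 (73.3%), against 23.8%. Both held for 18 genes, against 12.9% of all genes. Among them, Col5a1 was nearly tied between culture 5 (1546 CPM) and culture 2 (1545 CPM). Of the rest, 4 were highest in culture 6 (12.5% of all genes), 3 in culture 3 (20%), 2 in culture 1 (18.2%), 1 in culture 2 (10.7%) and 1 in culture 4 (9.37%). Lowest values fell in culture 5 for 5 genes (26.2% of all genes) and in cultures 2, 4 and 6 for 1 each (17.4%, 8.75% and 15.9%), with 0 in culture 3 (7.84%). The genes lowest in culture 5 were Col27a1, Col5a3, Col16a1, Col4a4 and Col11a2, and those highest in culture 1 were Col27a1 and Col14a1. Fibroblast marker sums in cultures 1 to 6 were 121.7, 244.8, 338.7, 629.8, 1209 and 249 CPM, and mural sums were 303.8, 699, 1068, 1154, 1994 and 1222 CPM. Peripheral glia sums were 6520, 6531, 6266, 5759, 4468 and 6223 CPM. Of 10 fibroblast markers 8 were detected in all libraries, as were 6 of 8 mural, 3 of 7 endothelial, 5 of 8 macrophage and 5 of 6 perineurial markers. The endothelial marker Cldn5 had no count in cultures 2, 3 and 6, and the perineurial marker Lypd2 had none in any (3 counts are 0.149 CPM at most). The fibroblast and mural sums were lowest in culture 1 and highest in culture 5, as were the 18 collagen genes above, while the glial sum was lowest in culture 5, and the part of these cells in the result was not tested.

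**Figure D3:**
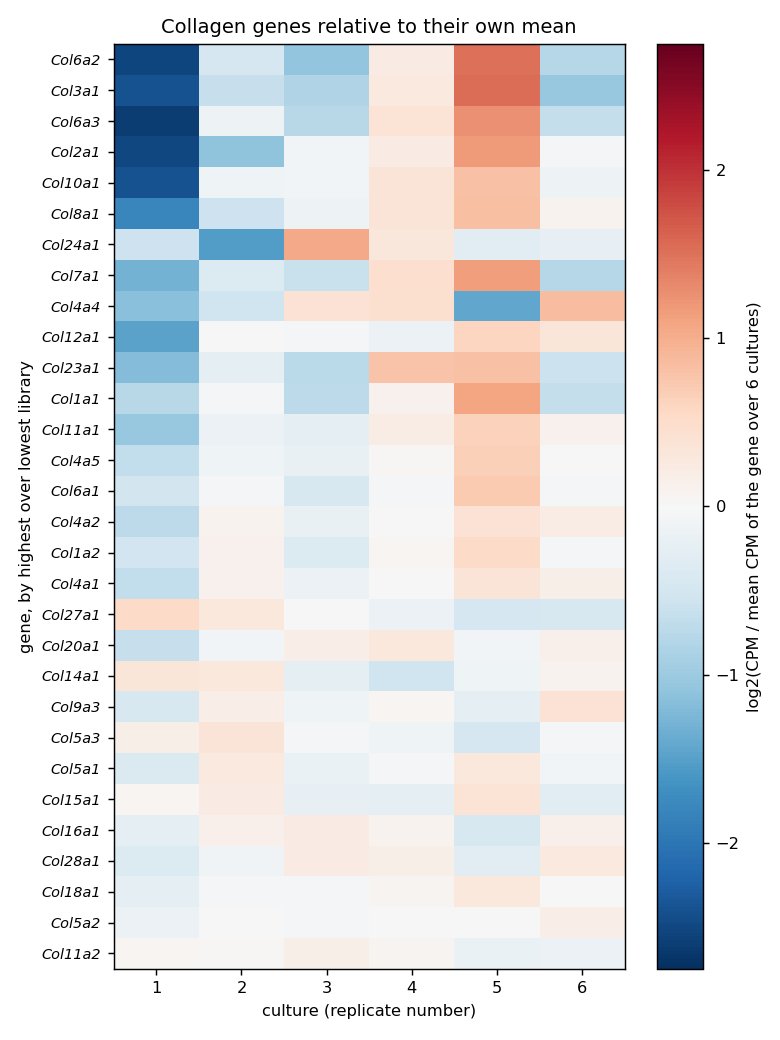
log2 of each gene's CPM over its own mean in the 6 cultures (colour) for the 30 collagen genes tested, ordered from the widest to the narrowest range. Culture 1 is the lowest column for 22 genes and culture 5 the highest for 19, while Col27a1, Col5a3 and Col16a1 are lowest in culture 5.

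Chains of 1 collagen type are made in fixed proportions within a trimer, so levels were compared between related chains within each library. The multiplexins Col15a1 and Col18a1 belong to different types and were compared only as relatives. Equal transcript levels are not taken here as the proportion within a trimer. Of 15 listed pairs, 9 had more than 3 counts of both chains in every library and were tested. For 8 of them the same chain was higher in all 6 libraries, and an exact permutation test by sign flips, two-sided, gave p = 0.0312, the smallest that 6 libraries allow (adjusted p = 0.0352 over the 9 pairs). The same share over other pairs of genes was not computed, so this count does not set collagen chains apart from other genes. Within types V and VI the pairs have genes in common and are not separate from one another.

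Col1a2 was higher than Col1a1, with a log2 difference (Col1a1 minus Col1a2, CPM per kilobase) of -0.90 ± 0.398 (SD, n = 6). The difference was -1.40 in culture 6 and -0.24 in culture 5, so the chains came nearest to equality where type I transcripts were highest. Col4a1 exceeded Col4a2 by 0.60 ± 0.0378, a ratio of 1.52. The SD of this couple was the smallest of the 9 pairs, with single libraries from 0.55 to 0.64, though above the 0.00994 that counting noise gives. Among the other 8 pairs the SD ran from 0.234 to 0.944.

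Col5a2 exceeded Col5a1 (Col5a1 minus Col5a2, -1.91 ± 0.241). The difference between Col5a1 and Col5a3 did not reach a p under 0.05 (0.48 ± 0.427, higher for Col5a1 in 5 of 6, exact sign-flip permutation p = 0.0625, adjusted 0.0625). With coding length in place of exon length it was 0.77, and without length scaling it was 0.85. Col5a1 was then higher in all 6 libraries (exact permutation p = 0.0312 for each). Col11a1 exceeded Col11a2 by 4.17 ± 0.637, from 3.16 in culture 1 to 5.03 in culture 5. Col18a1 exceeded its relative Col15a1 (Col15a1 minus Col18a1, -1.88 ± 0.293).

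In type VI collagen the proportions differed widely between cultures. Col6a1 exceeded Col6a2 by 4.55, 2.99, 3.21, 2.35, 1.80 and 3.36 in cultures 1 to 6 on the log2 scale, and Col6a3 by 3.77, 1.77, 2.01, 1.30, 1.16 and 2.33. The excess was largest in culture 1 and smallest in culture 5 for both. Col6a3 exceeded Col6a2 (Col6a2 minus Col6a3, -0.99 ± 0.234), with a narrower spread. Length decided some of these calls: without length scaling the excess of Col6a1 over Col6a3 was 0.61 (exact permutation p = 0.156), and with coding length the difference of Col6a2 and Col6a3 was -0.18 (exact permutation p = 0.125).

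**Figure D4:**
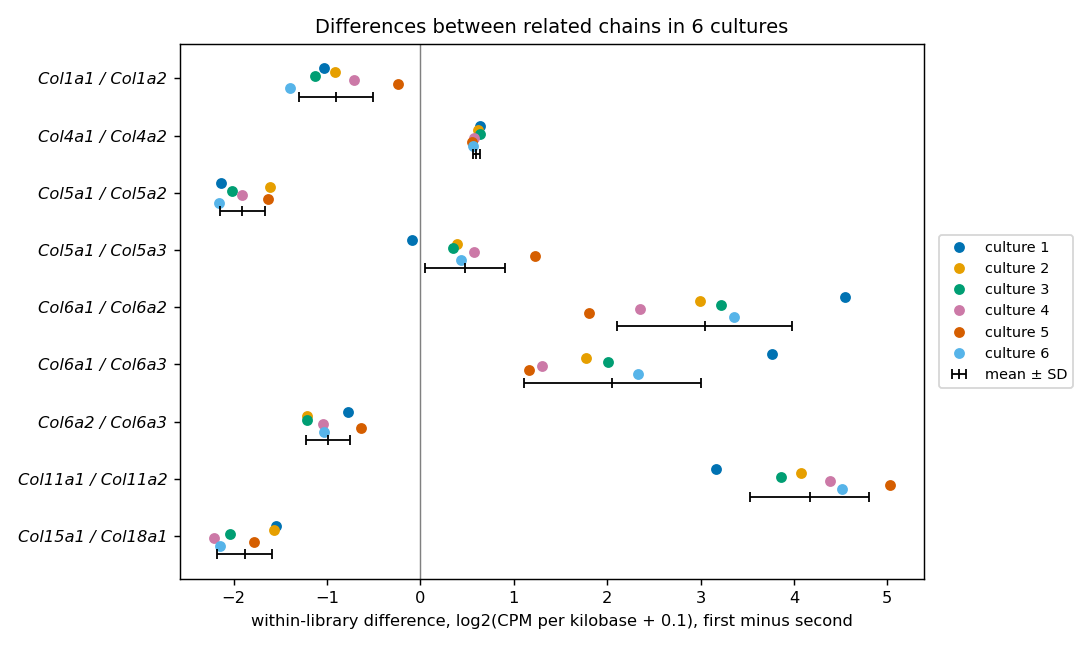
Within-library difference in log2(CPM per kilobase + 0.1), first chain minus second, for the 9 pairs tested; coloured points are the 6 cultures and black bars the mean ± SD. Points of Col4a1 and Col4a2 lie between 0.55 and 0.64, while those of Col6a1 and Col6a2 run from 1.80 in culture 5 to 4.55 in culture 1.

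Collagen chains need a dedicated set of enzymes, chaperones, proteinases and receptors, for which 47 genes were listed. Of these, 43 reached 1 CPM in all libraries, which 55.8% of all protein-coding genes did. All 44 tested varied beyond counting noise (76.3% of all genes), 14 had an edgeR quasi-dispersion p under 0.05 unadjusted (5.39% of all genes) and 0 adjusted (0% of all genes). Culture 5 was highest for 32 of the 44 (29.2% of all genes) and culture 1 lowest for 29 (23.8% of all genes), and the median coefficient of variation was 23.1%.

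All 15 enzymes that modify collagen in the endoplasmic reticulum were detected, with P4hb (729.1 ± 135 CPM), a subunit of prolyl 4-hydroxylase, Plod3 (330.5 ± 54.3 CPM), a lysyl hydroxylase, and the cyclophilin Ppib (220.9 ± 11.02 CPM) having the most counts (SD, n = 6 for each). None of the 15 reached a 4-fold range, which 3.24% of all genes detected did, so the count is near the background. The widest range was 3.93-fold, for Plod2, the hydroxylase of telopeptide lysines, and 2.17-fold without culture 5. Of the 8 chaperone and secretion genes, Serpinh1, the collagen-specific chaperone, averaged 862.1 ± 150.7 CPM, Pdia3 706.9 ± 60.1 CPM and Hspa5 574.6 ± 136.6 CPM (SD, n = 6 for each). Again none of the 8 reached a 4-fold range, against 3.24% of all genes detected.

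Propeptide processing genes included Bmp1, the C-proteinase, at 680.5 ± 130.3 CPM, its enhancer Pcolce at 155.5 ± 53.6 CPM and the N-proteinase Adamts2 at 68.0 ± 24.2 CPM (SD, n = 6). Of these 8 genes 5 were detected in all libraries and none of the 5 reached a 4-fold range, against 3.24% of all genes detected. Of 6 crosslinking genes 4 ranged at least 4-fold, against 3.24% of all genes detected. Lox, the lysyl oxidase, had 26.3, 135.4, 217.1, 401.1, 980.2 and 166.5 CPM, a 37.3-fold range, wider than that of any collagen gene detected. Tgm2, a transglutaminase, had 2.44, 13.8, 30.1, 38.9, 113.7 and 16.9 CPM, a 46.6-fold range. Loxl2, a relative of Lox, had 73.8, 182.1, 195.3, 312, 556.5 and 167.9 CPM. Loxl4 had 2.31, 4.78, 10.1, 10.2, 13.2 and 10.6 CPM, and Loxl1 averaged 160.8 ± 33.0 CPM (SD, n = 6) with a 1.77-fold range. Without culture 1 the ranges were 7.24-fold for Lox, 8.27-fold for Tgm2, 3.31-fold for Loxl2 and 2.76-fold for Loxl4. Without culture 5 they were 15.2-fold for Lox, 16.0-fold for Tgm2 and 4.23-fold for Loxl2. All but Loxl1 of these 6 genes were highest in culture 5.

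Of 10 receptor genes 9 were detected in all libraries, and 3 of these ranged at least 4-fold, against 3.24% of all genes detected. Itgb1, the beta chain shared by the collagen-binding integrins, stood at 2287 ± 91.4 CPM and ranged 1.10-fold. The discoidin receptor Ddr1 was at 307.9 ± 30.6 CPM and the alpha chain Itga1 at 155.5 ± 51.4 CPM (SD, n = 6). Mrc2, the collagen uptake receptor of mesenchymal cells, had 13.5, 77.8, 78.4, 165.4, 330.5 and 62.9 CPM, a 24.6-fold range. The collagen-binding alpha chain Itga11 had 2.26, 9.199, 12.7, 21.1, 52.7 and 8.18 CPM. Its relative Itga10 had 2.00, 5.87, 4.80, 7.27, 12.9 and 2.77 CPM. Both were lowest in culture 1 and highest in culture 5. Without culture 1 the range was 5.25-fold for Mrc2 and 6.45-fold for Itga11, and without culture 5 it was 12.3-fold for Mrc2, 9.31-fold for Itga11 and 3.63-fold for Itga10. The platelet receptor Gp6 had no count in any library.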

How the data were processed

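Poly-A RNA libraries of 6 cultures were analysed from 1 table of estimated counts per gene deposited by the authors without scaling; some of its counts are fractional. STAR 2.7.2b, featureCounts 1.6.4, cutadapt 2.5 and GRCm38.p6 are named in the submitters' processing notes. The strand setting and the handling of reads with several matches are not given in the sources used here. Fractional values occurred for 17 of the 44 collagen genes. The other column used, the combined exon length, is in bases. Gene coordinates matched RefSeq for all 44 genes, and promoter windows are from RefSeq on GRCm38.p6.

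Collagen genes were selected by symbol. The members and gene lists were chosen with earlier results of these data known. Values in every library are given for genes with a mean of at least 100 CPM, for detected genes with a range of at least 4-fold and for tested pairs, and other collagen genes are given by range or count. For each pathway list, the top 3 by mean CPM are given by mean and SD, and those ranging at least 4-fold by library. Estimated counts were rounded to whole numbers before fitting. Under R 4.3.3, edgeR 4.0.16 kept 14998 genes (filterByExpr) and gave TMM-scaled library sizes, with DESeq2 1.42.0 as the alternative. Variation was tested per gene by chi-square against counting noise and by edgeR's quasi-dispersion against its trend in an intercept-only model (one-sided F). Both were adjusted by Benjamini-Hochberg over all genes. Pairs were tested by exact permutation of signs, two-sided, on log2(CPM per kilobase + 0.1). Libraries held 20070639 to 22968642 counts. Alternatives covered scaling, filters, length and leaving out each library. The table held 0 further columns of per-sample values.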

Additional observations from a re-analysis of the deposited data

Results flagged for a closer look

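A single library lay far from the other 5 in 2 of 32 measures examined (30 collagen genes, the collagen share of counts and the fibrillar to type IV ratio). The criterion was Dixon's ratio, which relates the distance of an end value from the next one to the whole spread, and chance alone passes it in about 1 of 20 measures, or 1.6 here. Culture 1 was the low value in both: the ratio was 0.690 for Col10a1 and 0.639 for Col12a1, on the scale of log2(CPM per kilobase + 0.1).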

How the results depend on the processing

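No paired analysis was possible because all samples belong to 1 group. Length scaling (CPM per kilobase) lowered the collagen share of the library from 2.45% to 1.20%, since each gene is then divided by its length. The log2 ratio of fibrillar to type IV collagen, 1.49, was 0.95 with Col7a1, Col15a1 and Col18a1 counted with type IV and 2.41 without the highest member of each class. DESeq2 marked 9 outliers, while edgeR called 0 genes beyond the trend at an adjusted p, a test with little power here. With 1 library left out, 28 to 30 collagen genes were detected, 28 to 29 varied beyond counting noise, 5 to 9 of the 28 ranged at least 4-fold (5 without replicate 1; 6 to 9 with detection judged again in the remaining libraries, chosen after seeing the data) and the number of chain pairs called was 0 to 0, since 5 libraries cannot give a p below 0.0625. The mean direction of the 8 called pairs was the same in each such set. With TMM scaling 2 genes in place of 1 were highest in culture 2 and 18 in place of 19 in culture 5. Col5a1 was nearly tied between these cultures, at 1545 CPM in culture 2 and 1546 CPM in culture 5. Among all 36 genes with at least 10 counts in their highest library 6 in place of 3 were highest in culture 3. The coding length from GENCODE was chosen after the data were seen, and the planned protein length was not run. No mean difference between chains changed direction under the alternatives run, but values of single libraries did. Without length scaling Col6a3 exceeded Col6a1 in culture 4 (316.7 against 285.6 CPM) and in culture 5 (582.9 against 478.4 CPM). With coding length Col5a1 exceeded Col5a3 in culture 1 as well.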
